A study of Mus musculus with 15 samples.

Results

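Ribosome biogenesis and nucleolar genes are the genes whose products build ribosomes in the nucleolus. A list of 43 of them was followed through the response of the mouse uterus to 2 oestrogens. This list, like the other gene lists below, was chosen with earlier results of these data known. Its shares beside those of all genes therefore describe the list and do not test it. A member was any gene on the list with a non-control probe under its current symbol or an older one (Nop56, for example, stands on the array as Nol5a), and all 43 were found among 27647 named genes. The uteri came from ovariectomized CD-1 mice, which lack their ovarian oestrogen supply, and every group, vehicle included, shared that operation. E2 (estradiol) 24 h, E3 (estriol) 24 h, E2 2 h and E3 2 h uteri were taken 24 or 2 hours after injection of 250 ng of the hormone in 100 µl of saline, and vehicle uteri came from mice given 100 µl of saline alone. Estriol differs from estradiol by an extra hydroxyl. Each of the 5 groups holds 3 one-colour arrays. The labels give no collection time for the vehicle uteri, no age, and no statement on whether a sample is 1 animal or a pool, so every p-value rests on sample-to-sample spread that may be technical.

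Ribosomes are made in steps. RNA polymerase I transcribes a long precursor ribosomal RNA (rRNA) in the nucleolus, small nucleolar ribonucleoproteins (snoRNPs) mark the precursor with chemical modifications, and a large processome then folds and cuts it. Separate sets of assembly factors carry the small and large subunits to the nucleoplasm and the cytoplasm, where ribosomal proteins complete them. In the rodent uterus, oestrogen is known to cause early RNA synthesis and a later wave of growth and cell division, and growth of that kind needs new ribosomes.

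Levels are log2 array signal minus the 75th percentile of the same array, so a level of 0 is a signal at that percentile, and levels of different genes are not compared. A gene was called higher or lower when limma's moderated test over all 15 arrays gave a Benjamini-Hochberg adjusted p below 0.05 across 20310 genes. The probe used for each of the 43 genes was well above background on all 15 arrays and never saturated. All 6 uterine, 10 of 10 epithelial, 9 of 9 stromal and 7 of 7 smooth muscle markers were well above background on every array. So were 6 of 6 endothelial, 8 of 10 leukocyte and 5 of 6 adipocyte markers, and the 3 erythrocyte markers with a probe. With 63.1% to 80% of all probes well above background per array, this detection cannot identify the tissue. All vehicle arrays lay on 1 slide that held no other group, so for every comparison with vehicle the slide and the treatment cannot be told apart. Whole tissue was measured, so a change in the share of a cell type and a change in RNA per cell cannot be told apart either.

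One array stood apart from its group and bears on every result for E3 at 24 h. E3 24 h replicate 2 was the highest of the 3 E3 24 h arrays for 41 of 43 genes, and it lay above all vehicle arrays for 33 of them, against 7 and 8 genes for replicates 1 and 3. Of all 20310 genes tested, 7554 lay above all vehicle arrays on replicate 2, against 6264 and 7615 on replicates 1 and 3. Replicate 2 lay within or above the E2 24 h range for 27 of the 43 genes, against 3 and 2 for replicates 1 and 3. The SD of the 43 genes within E3 24 h had a median of 0.344 on the log2 scale, against 0.144 to 0.158 in each of the other groups. Over all genes it was also widest in E3 24 h, at 0.275 against 0.166 to 0.2. This array also had the lowest share of probes well above background, 63.1%, against 68.6% to 80% on the rest, and shared its slide with E2 2 h replicate 1; the part these play was not tested.

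The promoters of the 43 genes are shown because most of the genes rose at 2 h. RefSeq windows on GRCm38.p6, from 250 bases before the start to 50 after it, were found for 36 of the 43. The letters CCGGAAG on either strand, a core bound by transcription factors of the ETS family, occurred in 15 of the 36 (41.7%), against 9.93% of all 27025 genes with a window. The E-box CACGTG, bound by Myc and related factors, occurred in 7 of 36 (19.4%) against 8.09% of all genes, the related CACGCG in 12 of 36 (33.3%) against 10.5%, and the GC box GGGCGG in 24 of 36 (66.7%) against 38.2%. TATAAA occurred in 3 of 36 (8.33%) against 15.7%, and the full palindromic oestrogen response element in 0 of 36 against 0.074%. Both strands were searched for all 6 motifs, a motif may overlap another, and a match describes letters in a window and not a bound site. The 27025 genes were not limited to those measured in these uteri, whereas all 43 were well above background. The shares are therefore not matched for expression. The 100 bases before the start follow for 4 of the genes described below that have a CCGGAAG or its complement CTTCCGG in that stretch, given in capitals.
Mphosph10, chr7:64392237-64392336, minus strand: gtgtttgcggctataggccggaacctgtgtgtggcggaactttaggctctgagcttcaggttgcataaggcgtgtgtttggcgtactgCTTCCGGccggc
Nolc1, chr19:46075747-46075846, plus strand: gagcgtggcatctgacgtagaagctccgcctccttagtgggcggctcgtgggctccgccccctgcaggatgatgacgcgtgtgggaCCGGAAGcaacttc
Nhp2, chr11:51619673-51619772, plus strand: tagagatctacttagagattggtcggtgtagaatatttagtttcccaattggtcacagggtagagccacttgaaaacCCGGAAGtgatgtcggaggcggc
Polr1c, chr17:46248046-46248145, minus strand: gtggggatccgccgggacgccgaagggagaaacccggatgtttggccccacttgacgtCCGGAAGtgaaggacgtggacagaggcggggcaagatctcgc

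The first comparison asked which of these genes had changed 2 hours after either hormone. Ribosome biogenesis genes rose together: 33 of 43 were called higher in E2 2 h than in vehicle uteri and 36 of 43 in E3 2 h uteri, and none was called lower. Over all genes tested, 38.7% were called in the E2 comparison (15.5% higher and 23.1% lower) and 40.2% in the E3 comparison (16.6% higher and 23.6% lower). The median log2 difference of the 43 was 0.83 with E2 and 0.95 with E3, against -0.14 and -0.16 over all genes. All 3 hormone arrays lay above all 3 vehicle arrays for 35 genes with E2 and 37 with E3 (21.6% and 21.4% of all genes). Scaling each array to its median moved the all-gene medians to 0.04 and 0.08 and gave 36 and 39 of the 43 as higher.

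**Figure D1:**
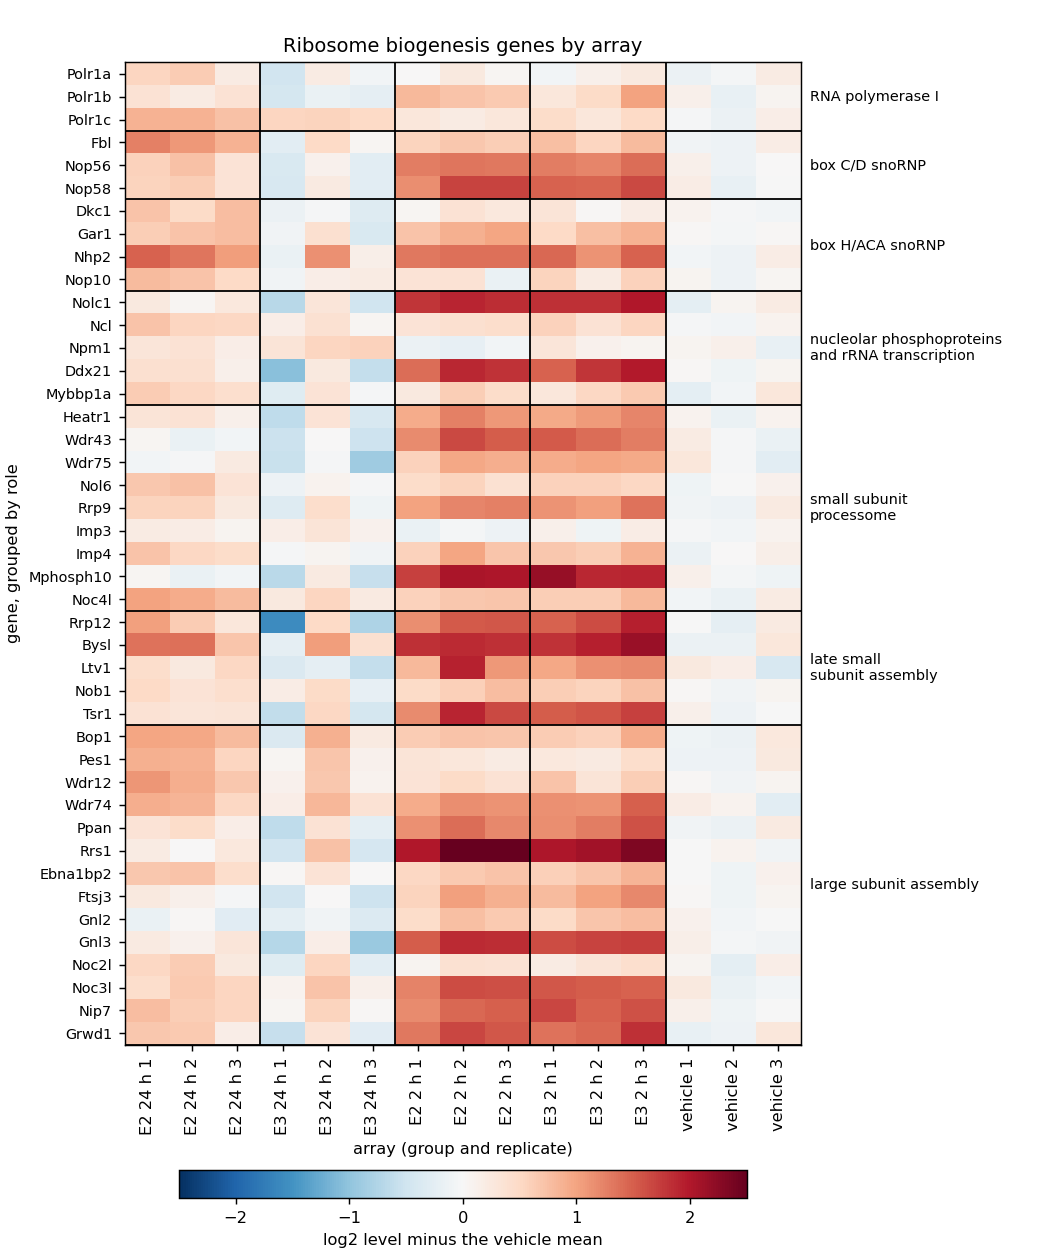
Log2 level of each of the 43 genes on each of the 15 arrays minus the mean of the 3 vehicle arrays (colour scale, red higher, blue lower), with genes in rows grouped by role and arrays in columns grouped by treatment. The 6 arrays at 2 h are red for most genes, the E2 24 h arrays are paler red, and within E3 24 h replicate 2 differs from replicates 1 and 3.

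The largest rises were of assembly factors of each subunit. Rrs1, needed for assembly of the large subunit, had levels of 2.19, 2.76 and 2.73 in E2 2 h uteri and 2.22, 2.29 and 2.53 in E3 2 h uteri, against 0.18, 0.27 and 0.1 in vehicle uteri. Every 2 h array lay well above every vehicle array. The difference was 2.38 (SE 0.27, 5.2-fold, adjusted p = 3.2e-05 by limma) with E2 and 2.16 (SE 0.27, 4.48-fold, adjusted p = 6.1e-05) with E3. The Rrs1 probe lies at chr1:9689836-9689895 of the mm7 build named in the file headers.

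Mphosph10, a component of the processome bound to the U3 snoRNA, came next. Its levels were 1.42, 1.76 and 1.73 in E2 2 h uteri and 1.89, 1.59 and 1.62 in E3 2 h uteri, against -0.16, -0.33 and -0.39 in vehicle uteri, with no overlap. The differences were 1.93 (SE 0.2, adjusted p = 1.8e-05, limma) and 1.99 (SE 0.2, adjusted p = 1.3e-05). Bysl, a late small subunit factor, stood at 2.08, 2.12 and 2.08 in E2 2 h and at 2.07, 2.2 and 2.42 in E3 2 h uteri, against 0.12, 0.12 and 0.54 in vehicle uteri. The 2 h and vehicle arrays of Bysl did not overlap, and the changes were 3.57-fold and 3.92-fold. Nolc1, a phosphoprotein that shuttles snoRNPs to the nucleolus, stood at 2.08, 2.19 and 2.14 in E2 2 h and 2.11, 2.11 and 2.29 in E3 2 h uteri, against 0.04, 0.35 and 0.49 in vehicle uteri. These also did not overlap, and the changes were 3.59-fold and 3.68-fold.

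**Figure D2:**
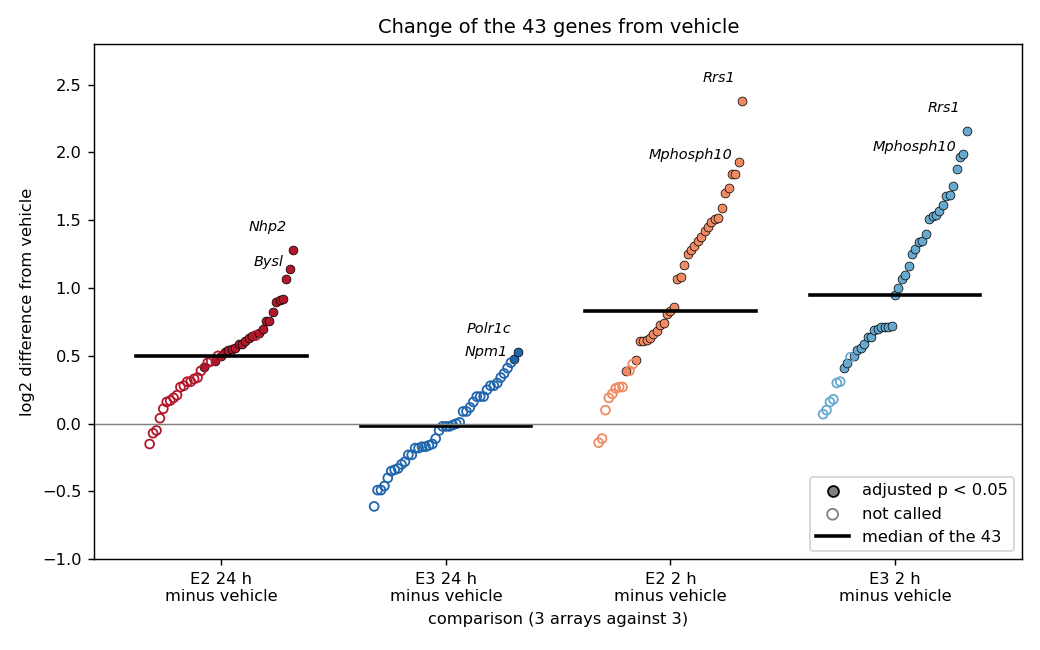
Log2 difference from vehicle for each of the 43 genes in the 4 hormone groups, sorted within each group, with filled points called at adjusted p < 0.05 by limma, open points not called and a bar at the median. The medians are 0.50 for E2 24 h, -0.02 for E3 24 h, 0.83 for E2 2 h and 0.95 for E3 2 h.

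By role, calls at 2 h ran from every listed late small subunit and box C/D gene to 1 of 3 RNA polymerase I genes with E2 and 2 of 3 with E3. All 5 late small subunit factors (Rrp12, Bysl, Ltv1, Nob1, Tsr1) were higher with either hormone, by 0.61 to 1.84 with E2 and 0.64 to 1.97 with E3. Of 9 processome components 8 were higher with either hormone; the other, Imp3, a U3 particle protein, differed by -0.11 and 0.07 and was not called. The 3 listed genes for core proteins of the box C/D snoRNP, which methylates rRNA, rose with either hormone: the methyltransferase Fbl by 0.62 and 0.70 (E2, E3), and its scaffolds Nop56 by 1.31 and 1.29 and Nop58 by 1.51 and 1.53. In the box H/ACA snoRNP, which converts uridine to pseudouridine, Nhp2 rose by 1.35 and 1.34 and Gar1 by 0.86 and 0.71, whereas the enzyme itself, Dkc1, differed by 0.22 and 0.18 and was not called. Its partner Nop10 was called with E3 (0.45) and not with E2 (0.19), a difference between hormones that was not called. Large subunit factors were higher in 11 of 14 with E2 and 12 of 14 with E3, among them Gnl3 (nucleostemin) at 1.74 and 1.68, Noc3l at 1.49 and 1.51 and Nip7 at 1.38 and 1.57. Of the partners of Wdr12 in the PeBoW complex of large subunit maturation, Bop1 rose by 0.68 and 0.71. Its call with either hormone was lost on leaving out any of 5 arrays (vehicle replicates 1 and 2, each 2 h array of that hormone). Pes1 stood at 0.27 and 0.30 and was not called on the probe used, whereas its other probe was called higher at 0.98 and 1.08. Among nucleolar phosphoproteins and rRNA transcription factors, the helicase Ddx21 rose by 1.70 and 1.75 and nucleolin (Ncl) by 0.39 and 0.50, while nucleophosmin (Npm1) stood at -0.14 and 0.16 and was not called. In RNA polymerase I, the second largest subunit gene Polr1b rose by 0.73 and 0.59, Polr1c by 0.41 with E3 (0.26 with E2, not called), and the largest subunit gene Polr1a stood at 0.10 with either and was not called.

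At 24 hours the 2 hormones were again each set against vehicle, with the same vehicle arrays. In E2 24 h uteri 23 of 43 genes were called higher and none lower, with a median of 0.50. In E3 24 h uteri 2 of 43 were called higher and none lower, with a median of -0.02. Over all genes, 43.4% were called with E2 (21.1% higher, 22.3% lower, median -0.02) and 20.4% with E3 (9.70% higher, 10.7% lower, median 0). All 3 arrays lay above all vehicle arrays for 32 of 43 genes with E2 and for 5 with E3 (27.2% and 17.0% of all genes), and below for 0 and 1 (29.0% and 19.1%). Without E3 24 h replicate 2, the E3 comparison called 2 genes higher and 7 lower, with a median of -0.23. The 7 were Ddx21, Gnl3, Heatr1, Mphosph10, Nolc1, Rrp12 and Wdr75, at -1.17 (Rrp12) to -0.52 (Heatr1). Within scan day 1 alone, which also leaves out that array, the E3 comparison gave 1 higher and 9 lower. In a fit of the E3 24 h and vehicle arrays by themselves it gave none. With quantile normalization E2 gave 14 higher and 1 lower (Gnl2), and E3 gave 0 higher and 2 lower (Gnl2 and Nop56). All-gene shares of fits with changed arrays or settings are not given here or below, so their counts describe the 43 genes alone.

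The 3 largest rises at 24 h with E2 were of snoRNP and small subunit genes. Nhp2, which binds the box H/ACA guide RNA, had levels of 3.99, 3.85 and 3.56 in E2 24 h uteri and 2.35, 3.66 and 2.66 in E3 24 h uteri, against 2.46, 2.4 and 2.7 in vehicle uteri. All E2 24 h arrays exceeded vehicle, and in E3 24 h uteri only replicate 2 did. The difference was 1.28 (SE 0.26, 2.42-fold, adjusted p = 0.0021, limma) with E2 and 0.37 (SE 0.26, adjusted p = 0.33) with E3, or -0.01 (SE 0.16) without that replicate. The Nhp2 probe lies at chr11:51579882-51579941 (mm7).

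Bysl followed, at 1.61, 1.64 and 0.95 in E2 24 h and 0.04, 1.3 and 0.67 in E3 24 h uteri, against the vehicle levels above. Its E2 arrays all exceeded vehicle (1.14, SE 0.27, adjusted p = 0.0054 by limma), and its E3 arrays overlapped vehicle (0.41, adjusted p = 0.3). Of its 3 probes, 2 were called higher with E2 at 24 h, while another stood at 0.23 and was not called. Fbl stood at 6.22, 6.06 and 5.83 in E2 24 h and 4.7, 5.46 and 5.02 in E3 24 h uteri, against 4.89, 4.84 and 5.16 in vehicle uteri. Again the E2 arrays lay apart (1.07, SE 0.18, adjusted p = 0.00053, limma) and the E3 arrays overlapped vehicle (0.09, adjusted p = 0.74). Its probe lies at chr7:25113080-25113139 (mm7).

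Polr1c and Npm1 were the 2 genes called with E3 at 24 h. Polr1c, a subunit shared by RNA polymerases I and III, had 4.66, 4.65 and 4.53 in E2 24 h uteri and 4.32, 4.35 and 4.28 in E3 24 h uteri, against 3.76, 3.65 and 3.96 in vehicle uteri. The 3 groups did not overlap. The differences from vehicle were 0.82 (SE 0.1, adjusted p = 9.2e-05, limma) with E2 and 0.53 (SE 0.1, adjusted p = 0.0075) with E3. Npm1, an abundant nucleolar chaperone, had 5.92, 5.97 and 5.78 in E2 24 h uteri and 5.93, 6.14 and 6.19 in E3 24 h uteri, against 5.67, 5.74 and 5.42 in vehicle uteri. All 24 h arrays exceeded vehicle, and the differences were 0.28 (adjusted p = 0.07, limma) with E2 and 0.48 (adjusted p = 0.018) with E3. Neither Polr1c nor Npm1 kept its E3 call with quantile normalization.

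**Figure D3:**
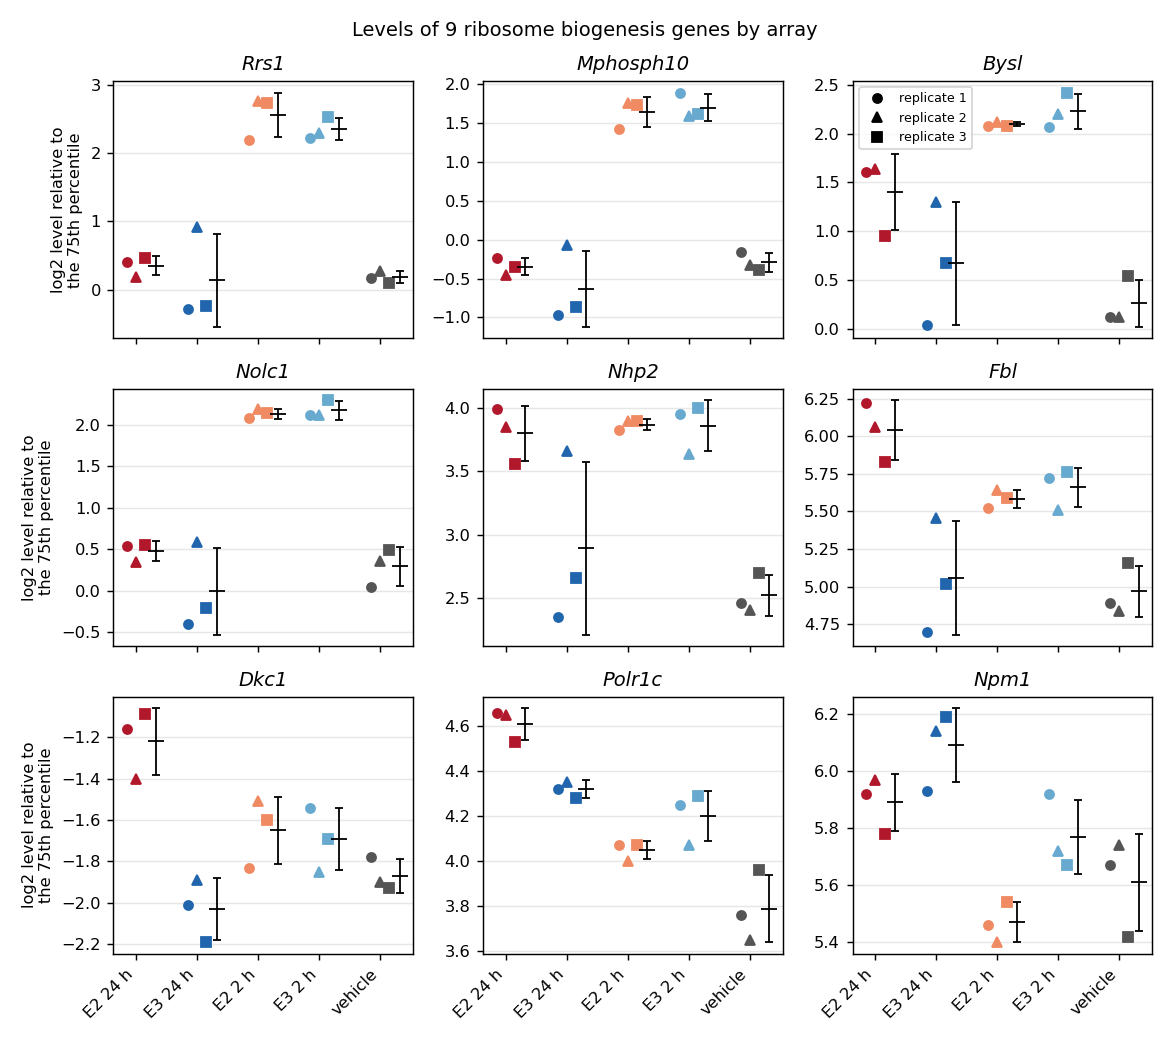
Log2 level relative to the 75th percentile of the array for 9 genes in the 5 groups of 3 arrays, with a symbol for each replicate and the mean ± SD in black beside it. Rrs1, Mphosph10 and Nolc1 are high at 2 h alone, Nhp2 and Fbl are high at 24 h with E2 but not with E3, where replicate 2 (triangle) lies above the other two, and Polr1c and Npm1 lie above vehicle with either hormone at 24 h.

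The calls at both times can be set side by side, though each turns on a threshold and differences between the resulting sets were not tested. Of the 43, 16 were higher at 2 h with both hormones and at 24 h with E2, with no call for E3 at 24 h: Bop1, Bysl, Ebna1bp2, Fbl, Gar1, Imp4, Ncl, Nhp2, Nip7, Nob1, Noc3l, Noc4l, Nol6, Nop56, Nop58 and Wdr74. A further 17 were higher at 2 h with both hormones and not called at 24 h with either: Ddx21, Ftsj3, Gnl2, Gnl3, Grwd1, Heatr1, Ltv1, Mphosph10, Nolc1, Polr1b, Ppan, Rrp12, Rrp9, Rrs1, Tsr1, Wdr43 and Wdr75. The border is not sharp: at 24 h with E2, Nop58 was called and Grwd1 was not, both at 0.50. With array weights 8 of these 17 were called at 24 h with E2 as well, and quantile normalization lost 9 of the 23 calls there. Dkc1, Mybbp1a, Pes1 and Polr1a were called at 24 h with E2 and nowhere else against vehicle, Polr1a at an adjusted p of 0.05 that lay just below the threshold before rounding. Nop10 and Wdr12 were called with E3 at 2 h and E2 at 24 h, Polr1c in these and with E3 at 24 h, and Npm1 with E3 at 24 h. Imp3 and Noc2l were not called in any of the 4 comparisons.

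The change between the 2 times was tested directly within each hormone. In E2 24 h against E2 2 h uteri, 7 of 43 genes were higher and 19 lower, with a median difference of -0.42. In E3 24 h against E3 2 h uteri 1 was higher and 34 were lower, with a median of -0.87. Among all genes 52.3% were called with E2 (30.6% higher, 21.7% lower) and 49.7% with E3 (29.9% higher, 19.8% lower), with medians of 0.13 and 0.19. All 24 h arrays lay below all 2 h arrays for 23 of 43 genes with E2 and 32 with E3 (26.4% and 21.5% of all genes), and above for 11 and 1 (35.8% and 32.7%). Quantile normalization gave 3 higher and 21 lower with E2, and 0 higher and 35 lower with E3. On slide 2, which held E2 24 h replicate 2 and E2 2 h replicates 2 and 3, the median of the 43 was -0.46. With slide as a fixed block, the E2 comparison gave 2 higher and 18 lower, and the E3 comparison gave none (median -0.50); E3 24 h replicates 1 and 3 are alone on their slide, so that fit takes E3 24 h from replicate 2. Without E3 24 h replicate 2, the E3 comparison gave 0 higher and 37 lower.

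The 2 h peaks of Rrs1 and Mphosph10 were gone at 24 h with either hormone. Rrs1 had 0.4, 0.19 and 0.46 in E2 24 h and -0.28, 0.92 and -0.23 in E3 24 h uteri, and its 24 h minus 2 h difference was -2.21 with each hormone (SE 0.27, adjusted p = 3.1e-05 with E2 and 4.6e-05 with E3, limma). Mphosph10 had -0.24, -0.46 and -0.35 in E2 24 h and -0.97, -0.07 and -0.86 in E3 24 h uteri. These lay below all 2 h arrays and around the vehicle levels (24 h minus 2 h of -1.99 with E2 and -2.33 with E3). Nolc1 had 0.54, 0.34 and 0.55 in E2 24 h and -0.4, 0.59 and -0.21 in E3 24 h uteri, and the differences were -1.65 and -2.18. Rrp12, a factor in export of the small subunit, had -4.04, -1.96 and -3.23 in E3 24 h uteri, against -0.99, -0.82 and -0.52 in E3 2 h uteri. The groups did not overlap, and the 24 h minus 2 h difference was -2.30 (SE 0.4, adjusted p = 0.00055, limma) with E3 and -0.77 (adjusted p = 0.13) with E2.

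Genes that stood higher at 24 h than at 2 h with E2 were Polr1c (0.57), Wdr12 (0.50), Pes1 (0.49), Nop10 (0.49), Fbl (0.45), Dkc1 (0.43) and Npm1 (0.43). Within scan day 1 alone all of these calls but that of Polr1c were lost. The other Dkc1 probe stood at 0.20 and was not called. Pes1 had 3.55, 3.53 and 3.19 in E2 24 h uteri, against 2.98, 2.95 and 2.86 in E2 2 h uteri, without overlap on this probe, while its other probe was called lower at 24 h (-0.77). Wdr12, its partner, had 1.33, 1.13 and 0.9 in E2 24 h uteri, against 0.57, 0.7 and 0.58 in E2 2 h uteri, also without overlap on the probe used. Over the 3 Wdr12 probes the difference ran from -0.09 to 0.50, with 1 called higher. Polr1c had the 24 h levels given above, against 4.07, 4 and 4.07 in E2 2 h uteri. Only Npm1 was higher with E3 (0.32, SE 0.12, adjusted p = 0.041, limma), from arrays at 5.93, 6.14 and 6.19 in E3 24 h uteri, against 5.92, 5.72 and 5.67 in E3 2 h uteri. This call was lost without E3 24 h replicate 2 (0.29, adjusted p = 0.088 by limma), and with quantile normalization Npm1 stood at -0.02.

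Set directly against each other at the matched dose and time, the 2 hormones were compared over 2 pairs of groups and 43 genes each, with p adjusted over all genes tested. At 2 h none of the 43 differed by limma (0 of 20310 genes called, 0%; 750 genes and 1 of the 43 at an unadjusted p below 0.05). The median E2 minus E3 difference was -0.04. The 95% intervals lay within 2-fold for 42 of the 43 and within 1.5-fold for 36, with bounds from -1.13 (Rrp12) to 0.80 (Rrs1). Npm1 had the largest difference, with 5.46, 5.4 and 5.54 in E2 2 h uteri against 5.92, 5.72 and 5.67 in E3 2 h uteri; the groups did not overlap, and limma gave -0.30 (SE 0.12, adjusted p = 1). All E2 2 h arrays lay above all E3 2 h arrays for 0 of the 43 (5.91% of all genes) and below for 1 (6.79%).

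At 24 h, 17 of 43 genes were called higher in E2 than in E3 uteri and none lower, against 15.7% of all genes called (8.96% higher and 6.78% lower). The median difference was 0.52, against -0.02 over all genes, and all E2 24 h arrays lay above all E3 24 h arrays for 16 of the 43 (14.9% of all genes). The count depended on the E3 24 h arrays: it was 36 without replicate 2, 7 without replicate 1 and 6 without replicate 3. Leaving out replicate 2 also raised counts in comparisons that do not use it. These went from 33 to 35 for E2 2 h and from 23 to 27 for E2 24 h, each against vehicle. The median E2 minus E3 difference at 24 h was 0.69 without replicate 2. For E2 against E3 at 24 h the count was also 6 and 7 without E2 24 h replicates 1 and 2. A fit of these 6 arrays alone called none, and slide as a fixed block, which takes E3 24 h from replicate 2, called none with a median of -0.11. Within scan day 1 the count was 27, and with scan day as a fixed block it was 10.

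**Figure D4:**
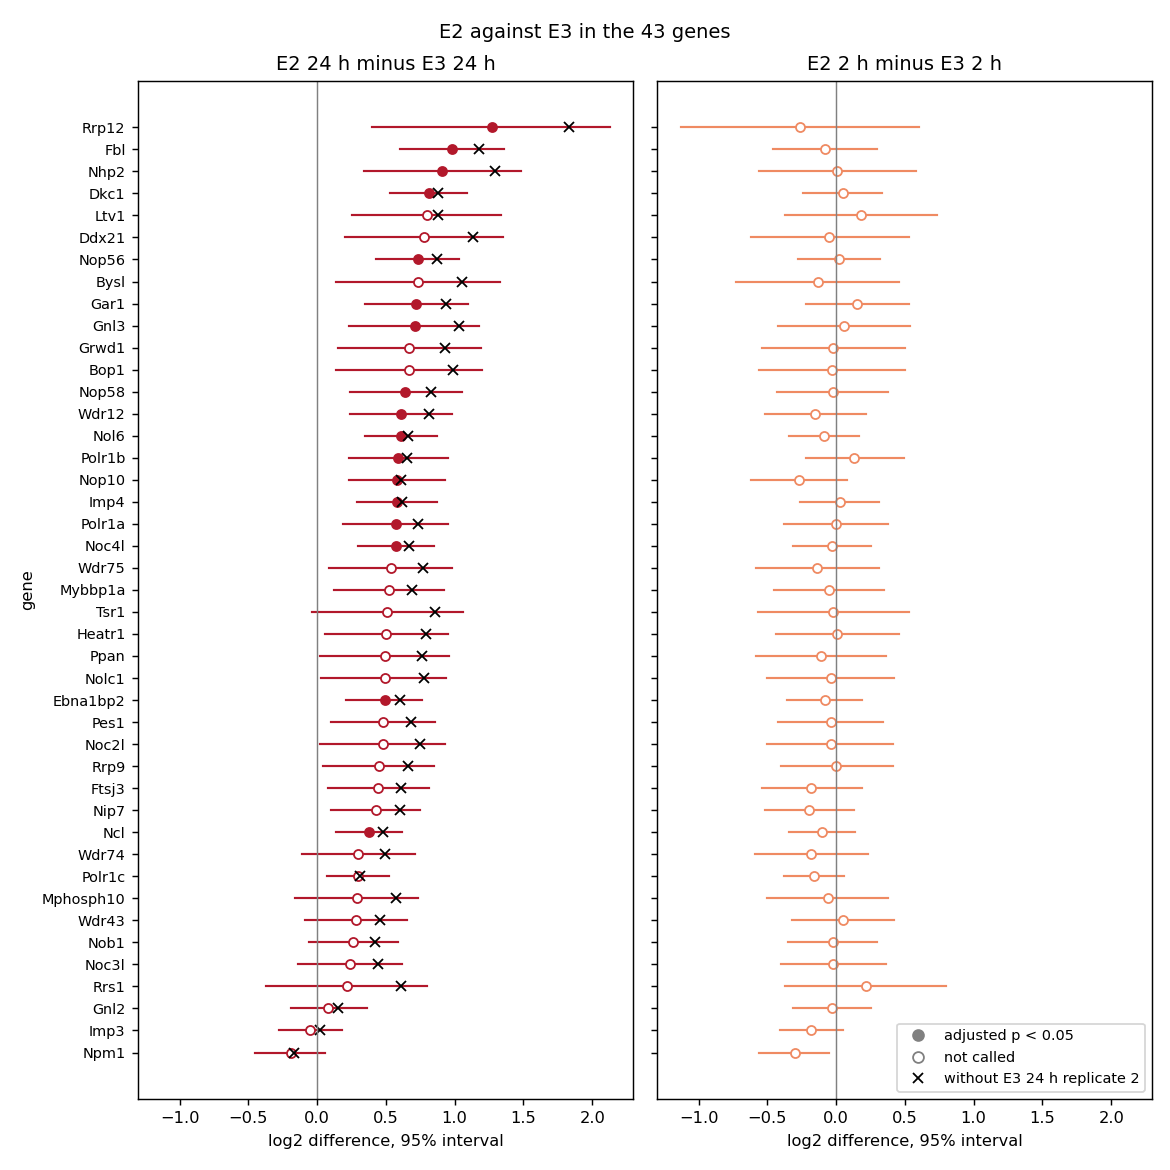
Log2 difference of E2 minus E3 with its 95% interval for each of the 43 genes at 24 h (left) and 2 h (right), with filled points called at adjusted p < 0.05 by limma and crosses for the 24 h value without E3 24 h replicate 2. At 24 h 41 of 43 differences are above 0, and at 2 h they lie between -0.30 and 0.22.

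The 7 snoRNP core genes on the list were all among the 17. Dkc1, the pseudouridine synthase, had -1.16, -1.4 and -1.09 in E2 24 h uteri, against -2.01, -1.89 and -2.19 in E3 24 h uteri. The groups lay far apart, replicate 2 included (0.81, SE 0.13, adjusted p = 0.0019, limma). Gar1 had 1.31, 1.4 and 1.47 in E2 24 h uteri, against 0.6, 1.1 and 0.31 in E3 24 h uteri (0.72). Nop10 had 3.81, 3.72 and 3.51, against 2.92, 3.17 and 3.21 in E3 24 h uteri (0.58). Neither Gar1 nor Nop10 overlapped between hormones, while Nhp2, with the levels given above, did through replicate 2 (0.91). In the box C/D particle, Fbl differed by 0.98 (SE 0.18, adjusted p = 0.0036, limma). Nop56 had 4.28, 4.43 and 4.05 in E2 24 h uteri, against 3.31, 3.8 and 3.44 in E3 24 h uteri (0.73). Nop58 had 3.14, 3.2 and 2.93 in E2 24 h uteri, against 2.19, 2.82 and 2.33 in E3 24 h uteri (0.64). For Fbl, Nop56 and Nop58 the hormones did not overlap.

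Of the polymerase and phosphoprotein genes, 3 were called. Polr1a had 2.47, 2.58 and 2.15 in E2 24 h uteri, against 1.47, 2.15 and 1.87 in E3 24 h uteri (0.57, adjusted p = 0.047, limma). Polr1b had 0, -0.16 and 0.01 in E2 24 h uteri, against -0.8, -0.52 and -0.59 in E3 24 h uteri (0.59). Ncl had 5.95, 5.76 and 5.74 in E2 24 h uteri, against 5.4, 5.61 and 5.28 in E3 24 h uteri (0.38). Polr1b and Ncl lay apart, and the closest Polr1a arrays of the hormones both rounded to 2.15.

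In small subunit assembly 3 of 9 processome components and 1 of 5 late factors were called. Nol6, which binds the precursor in the processome, had 1.3, 1.36 and 0.96 in E2 24 h uteri, against 0.49, 0.7 and 0.6 in E3 24 h uteri (0.61, SE 0.12, adjusted p = 0.0055, limma). Imp4, of the U3 particle, had -1.94, -2.15 and -2.2, against -2.69, -2.59 and -2.75 in E3 24 h uteri (0.58). Noc4l had 1.15, 1.06 and 0.93, against 0.39, 0.67 and 0.36 in E3 24 h uteri (0.57). In these 3 genes every E2 24 h array lay above every E3 24 h array. Rrp12 had -1.43, -1.82 and -2.18 in E2 24 h uteri, against -4.04, -1.96 and -3.23 in E3 24 h uteri, and overlapped through replicate 2. Its difference was 1.27 (SE 0.4, 2.41-fold, adjusted p = 0.049, limma) with that array and 1.83 (SE 0.27) without it.

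Among 14 large subunit factors 3 were called. Wdr12 had 1.33, 1.13 and 0.9 in E2 24 h uteri, against 0.32, 0.9 and 0.3 in E3 24 h uteri (0.61). Gnl3 had 0.8, 0.68 and 0.87, against -0.15, 0.73 and -0.35 in E3 24 h uteri (0.71). Ebna1bp2, an early large subunit factor, had 4.19, 4.22 and 3.95, against 3.53, 3.85 and 3.52 in E3 24 h uteri (0.49). Of these 3, Ebna1bp2 was free of overlap, and in Gnl3 and Wdr12 replicate 2 of the E3 group reached the E2 range. Rrs1 and Mphosph10, the 2 genes with the largest early rise, were not called here, at 0.22 and 0.29. Without E3 24 h replicate 2 both were called higher with E2, at 0.61 (adjusted p = 0.03, limma) and 0.57 (adjusted p = 0.018, limma).

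Whether the change over time differed between the hormones was tested as an interaction, (E2 24 h minus E2 2 h) minus (E3 24 h minus E3 2 h). It was called for 4 of 43 genes, all positive, against 6.22% of all genes (3.85% positive and 2.38% negative), and the median of the 43 was 0.57 against -0.02. Fbl had the largest called value, at 1.06 (SE 0.25, adjusted p = 0.029, limma): it was 0.45 higher at 24 h than at 2 h with E2 and -0.61 with E3. Nop10 (0.84), Dkc1 (0.77) and Nol6 (0.70) were the others. The count was 26 without E3 24 h replicate 2. It was 0 with scan day or slide as a fixed block and in a fit without the vehicle arrays. Leaving out another array gave 0 for 6 of them (the 2 h arrays numbered 1 and 3 of each hormone, E2 24 h replicate 1, E3 24 h replicate 3), 1 for E2 24 h replicate 2, and 2 for E2 2 h replicate 2 and for E3 24 h replicate 1.

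Of the 43 genes, 20 have more than 1 probe, and 19 could be compared over probes measured on all arrays. All probes of a gene ran in 1 direction for 18 of 19 at 2 h with either hormone, and for 13 of 19 with E2 and 12 of 19 with E3 at 24 h. Each probe reads a given stretch of the transcript. In E2 24 h uteri 3 genes had probes called in opposite directions: Ebna1bp2 (0.61 and -0.57), Nip7 (0.63 and -0.54) and Nop56 (0.55 and -0.54), in each case with the brighter probe, the one used here, being higher. Nolc1 stood at 0.19 on its brighter probe and at -0.65, called lower, on the other. Ddx21 ran the other way, at 0.31 on its brightest probe and 1.71, called higher, on another. Pes1, not called at 2 h on its brighter probe, was higher on the other (0.98 with E2 and 1.08 with E3). For Ebna1bp2 the other probe stood at -0.23 and -0.22 at 2 h and was not called. Taking the mean of a gene's probes, E3 24 h uteri had 2 genes higher and 3 lower than vehicle.

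A wider list of 122 other ribosome biogenesis genes, of which 120 were tested, also rose at 2 h, with smaller medians. At 2 h 71 were higher and 2 lower with E2 (median 0.49), and 78 higher and 2 lower with E3 (median 0.59). The higher calls were 59.2% and 65% of the list, against 15.5% and 16.6% of all genes. Nop2, an rRNA methyltransferase, had 4.11, 4.38 and 4.42 in E2 2 h and 4.21, 4.43 and 4.65 in E3 2 h uteri, against 2.64, 2.54 and 2.9 in vehicle uteri, without overlap (1.61 and 1.74). Nmd3, the export adaptor of the large subunit, rose by 1.56 with E2, at 0.28, 0.68 and 0.71 in E2 2 h uteri, against -0.73, -1.05 and -1.23 in vehicle uteri. Cd3eap, an RNA polymerase I subunit, rose by 1.69 with E3, at 1.81, 1.66 and 1.93 in E3 2 h uteri, against -0.2, 0.08 and 0.44 in vehicle uteri. Taf1d, of the promoter selectivity factor SL1, fell, at 1.87, 1.91 and 1.9 in E2 2 h and 1.57, 1.98 and 1.97 in E3 2 h uteri, against 2.63, 2.24 and 2.4 in vehicle uteri (-0.53 and -0.59). Exosc7, of the RNA exosome, fell too, at 0.61, 0.69 and 0.82 in E2 2 h and 0.73, 0.82 and 0.82 in E3 2 h uteri, against 1.31, 1.19 and 1.03 in vehicle uteri (-0.47 and -0.39). These were the 2 called lower, and neither overlapped vehicle. In all, 13 of the 120 differences were negative with E2 and 12 with E3.

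At 24 h 36 of the 120 were higher and 6 lower with E2 (median 0.21), and 3 were higher and 7 lower with E3 (median -0.07). With E2 30% of the list was higher, against 21.1% of all genes, and with E3 2.5% was higher and 5.83% lower, both below the all-gene shares of 9.70% and 10.7%. Zfp593 rose by 1.15 with E2, at 2.94, 2.21 and 1.97 in E2 24 h uteri, against 0.93, 1.17 and 1.56 in vehicle uteri. Wdr18, of the Rix1 complex that works on the large subunit, rose by 1.07, at 1.35, 1.23 and 0.85, against -0.1, -0.02 and 0.34 in vehicle uteri. Both groups of arrays lay apart for Zfp593 and for Wdr18. Tsr2, a chaperone of a small subunit protein, fell with either hormone, at -2, -2.1 and -2.08 in E2 24 h and -1.55, -2.18 and -1.9 in E3 24 h uteri, against -0.65, -0.65 and -0.8 in vehicle uteri (-1.37 and -1.18). Taf1a, another SL1 subunit, fell with E2 (-0.90), at 0.05, 0.1 and 0.01 in E2 24 h uteri, against 0.97, 0.94 and 0.95 in vehicle uteri. With E3, Polr1d, shared by RNA polymerases I and III, rose by 0.79, at 2.4, 2.94 and 2.63 in E3 24 h uteri, against 1.87, 1.78 and 1.95 in vehicle uteri. Tex10, a partner of Wdr18, rose by 0.33, at 1.52, 1.79 and 1.56, against 1.33, 1.2 and 1.34 in vehicle uteri. Mdn1, the large ATPase of large subunit assembly, fell (-1.61), at -5.77, -5.79 and -6.97, against -4.01, -4.84 and -4.86 in vehicle uteri. Its levels are the lowest given here, so the size of this fall is uncertain. A gene entered the test with signal well above background in some group only, and background was not examined further for Mdn1. None of these 3 genes overlapped between E3 24 h and vehicle. E2 exceeded E3 at 24 h in 27 of the 120 (22.5%, against 8.96% of all genes) and lay below it in 1.

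The 78 genes of cytosolic ribosomal proteins, the building blocks themselves, were also measured. None was called at 2 h with E2 (median -0.14) or E3 (median -0.06), and 18 were higher and none lower at 24 h with each hormone (medians 0.28 and 0.37). These 18 are 23.1% of the list, close to the 21.1% of all genes called higher with E2 and above the 9.70% with E3. In 24 h against 2 h uteri 38 were higher with E2 (48.7%, against 30.6% of all genes) and 42 with E3 (53.8%, against 29.9%), and none was lower, and none differed between E2 and E3 at 24 h (median -0.09). Per array, their median change from vehicle was 0.42, 0.36 and 0.06 in E2 24 h and 0.15, 0.51 and 0.54 in E3 24 h uteri. On the vehicle arrays it was -0.11, -0.08 and 0.20. E3 24 h replicate 2 did not stand alone in this list.

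**Figure D5:**
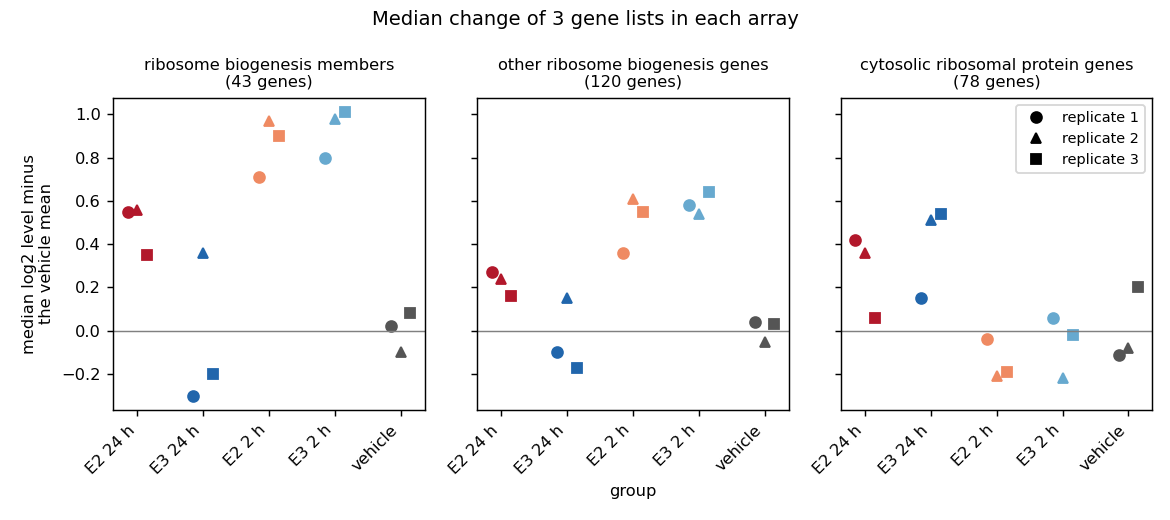
Median log2 level of each array minus the vehicle mean, for the 43 genes, the 120 other ribosome biogenesis genes tested and the 78 cytosolic ribosomal protein genes, with a symbol for each replicate in the 5 groups. The 43 genes lie at 0.71 to 1.01 on the 2 h arrays, at 0.35 to 0.56 on the E2 24 h arrays and at -0.30, 0.36 and -0.20 on the E3 24 h arrays. The highest arrays for the ribosomal protein genes are 24 h ones, but E2 24 h replicate 3 and E3 24 h replicate 1 lie below vehicle replicate 3.

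Markers of the cell types of the uterus moved between the same groups. The median change of 10 epithelial markers from vehicle was 0.73, 0.51 and 1.04 on the E2 24 h arrays and 0.49, 1.14 and 0.17 on the E3 24 h arrays, against -0.20 to 0.18 on vehicle arrays and -0.44 to 0.09 at 2 h. Within E3 24 h it was highest on replicate 2, as were the ribosome biogenesis genes. The 9 stromal markers had medians of 0.62 to 0.72 on E2 24 h and 0.69 to 0.98 on E3 24 h arrays, and of -0.60 to -0.14 at 2 h. They did not all move together. In E2 24 h uteri 5 were called higher and 2 lower than vehicle (21.1% and 22.3% of all genes), at -0.58 to 2.45. In E3 24 h uteri 5 were called higher and 0 lower (9.70% and 10.7% of all genes). The values for the other lists are also medians, so single markers can differ from them. Leukocyte markers, 9 of 10 tested, lay at -0.46 to -0.31 on E2 24 h arrays and at -0.07, 1 and 1.02 on E3 24 h arrays. Of the 10, Cd79a and Epx (B cells and eosinophils), were not well above background on every array. The 7 smooth muscle markers lay at 0.30 to 1.05 on E2 24 h and 0.60 to 0.99 on E3 24 h arrays, and at -0.31 to 0.22 at 2 h. The 3 erythrocyte markers with a probe lay above vehicle (-0.33 to 0.40) on every 2 h array, at 0.79 to 1.13 with E2 and 0.57 to 0.70 with E3, and at 0.33 to 1.73 at 24 h. The 6 uterine tissue markers had medians of -1.23 to -0.75 in E2 2 h and -1.06 to -0.72 in E3 2 h uteri, against -0.24 to 0.19 in vehicle uteri. Of them, 3 were called lower with E2 and 4 with E3 (23.1% and 23.6% of all genes). With each hormone 1 marker went the other way and was called higher, at 1.99 with E2 and 1.82 with E3 (15.5% and 16.6% of all genes). Endothelial markers lay at -0.72 to -0.35 on E2 24 h and -0.48 to 0.01 on E3 24 h arrays, and adipocyte markers ran from -2.73 to 1.56 on E2 24 h and -0.21 to 1.34 on E3 24 h arrays. The part of these markers in the ribosome biogenesis results was not tested.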

How the data were processed

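Total RNA of whole uterus was hybridised to one-colour Agilent arrays, 15 in all. Per the file headers and the submitters' processing notes, the authors scanned the Cy3 intensity of each spot and processed it with Agilent Feature Extraction 9.5, with spatial background subtraction and detrending and a substitute for low values; the deposited value table equals this processed intensity. From it the log2 intensity minus each array's 75th percentile over non-control probes was computed here, since the deposited values had no log2 scaling. Spots marked as outliers were left out, spots of a probe averaged, and each gene taken from its brightest probe on average.

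A gene entered the test if some group had it well above background on each of its 3 arrays (20310 genes), and was tested with limma 3.58.1 in R 4.3.3, with 5 group means over 15 arrays. Of 41174 probes, names came from RefSeq accessions for 22951, and 8440 kept the name in the file. The 75th percentile signal was 1052.8 to 1854.1, and the number of arrays limits precision.

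Values on every array are given for the 3 largest called changes each way per comparison with vehicle or between times, for any gene called between hormones or in the interaction (with none, the largest difference), and for the 2 largest each way of the wider list. Genes, lists and roles were chosen with earlier results of these data known. Over all genes, deviations from the group mean on same-numbered arrays of compared groups had correlations of -0.22 to 0.21. In E2 24 h against E2 2 h each array matched its same-numbered array best, at 0.14, 0.11 and 0.09. The arrays were not treated as pairs. Alternatives covered normalization, background, filters, probes, slide, scan day, array weights and single arrays left out.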

Additional observations from a re-analysis of the deposited data

Results flagged for a closer look

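The change from 2 h to 24 h differed between E2 and E3, by limma's test of the interaction, for 4 of the 43 genes (9.3%, against 6.22% of all genes). The E2 change minus the E3 change was 1.06 for Fbl, 0.84 for Nop10, 0.77 for Dkc1 and 0.70 for Nol6 on the log2 scale. Without E3 24 h replicate 2 the values for these genes were 1.26, 0.88, 0.84 and 0.75, and all were called. All 4 calls were lost with no filter on dim probes, with the groups compared alone, with slide or scan day as a fixed block, within scan day 1, and on leaving out any of 6 other arrays.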

How the results depend on the processing

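The 2 h results moved least: over 13 alternatives with all groups and the arrays left out in turn, 30 to 39 of the 43 genes were higher with E2 and 32 to 39 with E3. For E2 24 h against vehicle, 15 genes were called with quantile normalization (14 higher, 1 lower) and 18 with normexp background (16 higher, 2 lower). For E3 24 h against vehicle the main count of 2 became 0 for the groups compared alone, 5 for the mean of probes, 9 with array weights (3 higher, 6 lower), 10 within scan day 1 and 12 without slide 5, a setting chosen after seeing the data; normexp gave 0 higher and 2 lower. For E2 minus E3 at 24 h, 17 became 0 (groups alone, slide fixed), 8 (no filter), 10 (scan day fixed), 11 (slide as a random block), 27 (scan day 1), 30 (array weights) and 38 (without slide 5). The interaction count of 4 became 0 (no filter, groups alone, slide fixed, scan day fixed), 2 (mean of probes, slide random, scan day 1), 26 (array weights) and 12 (without slide 5). With slide fixed, E3 24 h minus E3 2 h gave 0; by construction that fit takes E3 24 h from replicate 2. With the replicate block, E2 minus E3 at 24 h gave 11 and the interaction 1, and the other counts stayed within 1.5 times; the numbers are not shown to pair the samples. Leaving out 1 array gave 1 to 9 for E3 24 h against vehicle, 6 to 36 for E2 minus E3 at 24 h and 0 to 26 for the interaction. All-gene counts under these settings are not given. Among the genes named, signs turned for Ebna1bp2 (E3 24 h minus vehicle, -0.36) and Pes1 (E2 24 h minus 2 h, -0.14) with the mean of probes; for Npm1, 24 h minus 2 h, with quantile normalization (E2 -0.03, E3 -0.02) and normexp (E2 -0.03, E3 -0.03); for Fbl (E2 24 h minus 2 h, -0.02) with normexp; and with slide fixed for Dkc1 (0.32) and Ncl (0.02) in E3 24 h minus 2 h (4 of the 35 called there turned in all), Rrp12 (-0.25), Gnl3 (-0.39) and Nop58 (-0.14) in E2 minus E3 at 24 h, and the Dkc1 interaction (-0.17). Except where the construction is given, the cause was not tested. Scaling to the median moved the all-gene median of E2 24 h minus vehicle to 0.2 and of E3 24 h to 0.14, with 29 and 3 genes higher.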
